A study of Mus musculus with 4 samples.

Results

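The genes of the heat shock response and the unfolded protein response were followed across 4 cultured lines of mouse melanoma. The members were taken by symbol: 32 listed genes, of which 28 had a named probe on the array, and every gene whose symbol is Dnaja, Dnajb or Dnajc followed by a number, of which there were 39. Together they made 67 genes on 74 probes, of 15439 named genes and 33012 probes in all. The rule reads symbols alone, but the module was proposed with earlier results of these data known. Hspa1a, Hspa1b, Atf6 and Pdia6 were not analysed here.

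All 4 lines descend from B16F1, a melanoma line of C57BL6 mice, and were grown in the same medium, which held fetal bovine serum and antibiotic-antimycotic solution, with no treatment named. B16 is the parental line. B16-RI was grown out of lymph node metastases that formed after parental cells were placed in the back skin of mice, and a further round with B16-RI gave B16-RII from lymph nodes and B16-RIIL from lung. The RNA of each line pooled cultures of different passage number, and how many mice stand behind a line is not given in the sources used here. The lines were grown in duplicate, and values of a second array of each line are in the deposited table, but those columns match no sample label and were not used. The values given here come from 1 array per line, so the differences between lines have no replicate check and no p-value is given.

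Each signal is given as a relative signal, in which 1 is the median of the probes of the same set that were detected on every array, so it compares arrays for a probe and not probes with each other. A probe was detected where its signal-to-noise ratio (S/N) was at least 3 and its flag at most 5000, which held for 13872 to 14855 probes per array. A gene is represented by its brightest probe, and it is said to rise or fall where the arrays differ at least 2-fold, or 1 log2 unit, with detection on the brighter array. Where the dimmer array did not detect the probe, its fold is written as "at least", but that size is uncertain and depends on the scaling. As a measure of disagreement between probes, 498 genes had a pair of probes detected on every array, and the differences from B16 given by the probes of a pair were apart by a median of 0.22 log2 units in B16-RI, 0.29 in B16-RII and 0.31 in B16-RIIL. For 10% of these genes they were apart by more than 0.74, 0.80 and 0.83 log2 units, respectively. Both probes of a pair are read on the same arrays, so these gaps leave out the spread between cultures and between arrays. The melanocyte lineage was detected on every array with 5 of 5 markers on the array, whose summed relative signal was 316 to 367. Of the markers of host cells, 1 to 2 of 6 for lymphocytes, 1 to 2 of 5 for macrophages, 1 to 3 of 5 for fibroblasts, 0 to 1 of 4 for endothelium and 0 to 1 of 3 for lung epithelium were detected per array. Cd79a, Lyz2 and Col1a2 were detected on every array, whereas Ptprc, Cd3e, Adgre1, Cd68, Dcn, Cdh5 and Sftpc were not detected on any. The summed signal per list was 4.05 to 4.63 for lymphocytes, nearly all of it from Cd79a, 0.331 to 0.538 for macrophages, 0.554 to 1.05 for fibroblasts, 0.105 to 0.195 for endothelium and 0.111 to 0.206 for lung epithelium.

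Proteins that fail to fold are met by separate programmes in separate compartments. In the cytosol the factor HSF1 induces chaperones, while in the endoplasmic reticulum (ER) the sensors IRE1 (Ern1), PERK (Eif2ak3) and ATF6 answer an overload of unfolded proteins, IRE1 by splicing the Xbp1 message and PERK by slowing translation. Slowed translation favours the factor ATF4, whose targets include Ddit3 (CHOP), Trib3 and Atf3. This course is called the integrated stress response, and lack of amino acids, haem or oxygen sets it off as well. The J-domain proteins of the Dnaj families bring clients to the Hspa chaperones and stimulate their ATPase.

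The sequences that link these genes are short elements near the start of transcription. Promoter windows of RefSeq (GRCm38.p6), from 250 bases upstream to 50 bases downstream of a start, were at hand for 56 of the 67 genes, and 4 elements were searched on both strands. The ER stress element, ERSE, was written as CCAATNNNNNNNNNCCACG and was found in 0.119% of 32851 windows. Its shorter form ERSE-II, written as ATTGGNCCACG, was found in 0.0365%. The ATF4 element, CARE, was written as TGATGNAA and was found in 3.97%. The heat shock element, HSE, was written as GAANNTTCNNGAA and was found in 0.603%. None of these patterns contains another, although ERSE and ERSE-II both hold a CCAAT box, read on opposite strands. A match is a run of letters and not a binding site that was measured.

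The ERSE was present in 7 members. Their matches are shown because Hspa5, Dnajc3, Creld2 and Calr among them were brighter on every passaged line than in B16 with the scaling used here. So were 29.7% of the 7343 genes detected on every array. Hsp90b1 and Canx were not, and Syvn1 was not detected in B16 or B16-RI. Each match is written in the direction of the element with its fixed letters in capitals and 5 bases on either side, and the coordinates are those of the element in GRCm38.p6.
Hspa5 (chr2:34772025-34772043, gene on the plus strand): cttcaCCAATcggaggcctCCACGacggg
Dnajc3 (chr14:118937827-118937845, gene on the plus strand): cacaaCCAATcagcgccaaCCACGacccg
Creld2 (chr15:88819520-88819538, gene on the plus strand): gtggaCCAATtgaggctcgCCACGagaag
Calr (chr8:84847075-84847093, gene on the minus strand): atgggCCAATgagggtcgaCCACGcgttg
Hsp90b1 (chr10:86705533-86705551, gene on the minus strand): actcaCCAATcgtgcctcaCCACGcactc
Hsp90b1 (chr10:86705638-86705656, gene on the minus strand): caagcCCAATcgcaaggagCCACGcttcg
Canx (chr11:50325800-50325818, gene on the minus strand): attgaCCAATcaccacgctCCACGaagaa
Syvn1 (chr19:6046532-6046550, gene on the plus strand): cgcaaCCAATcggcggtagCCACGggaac

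ERSE-II was present in Herpud1 and Dnajb11, the former in the upstream stretch and the latter just after the start. They are shown because Herpud1 rose between passaged lines and Dnajb11 is the other member that holds the element.
Herpud1 (chr8:94386377-94386387, gene on the plus strand): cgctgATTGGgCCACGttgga
Dnajb11 (chr16:22857852-22857862, gene on the plus strand): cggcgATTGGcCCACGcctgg

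The CARE was present in 4 of the 70 windows of the members, each of a different gene. It was also present in 6 genes of a list of other ATF4 targets, which had 22 windows. Of all windows 3.97% held it. The matches of the members, of Chac1 and Nupr1, which fell in B16-RI and B16-RII, and of Slc7a11, which rose in B16-RI and B16-RIIL, are shown here in the direction of the element. Aars and Gars, which stayed within 2-fold of B16, and Vldlr held it as well. The match of Trib3 lies after its start.
Atf3 (chr1:191183436-191183443, gene on the minus strand): cttggTGATGcAAgtgcg
Asns (chr6:7693225-7693232, gene on the minus strand): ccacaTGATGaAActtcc
Herpud1 (chr8:94386317-94386324, gene on the plus strand): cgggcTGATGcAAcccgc
Trib3 (chr2:152344039-152344046, gene on the minus strand): ccggcTGATGtAAacctg
Chac1 (chr2:119351049-119351056, gene on the plus strand): aggagTGATGcAAcggca
Nupr1 (chr7:126625573-126625580, gene on the minus strand): ctgtcTGATGcAAtctgg
Slc7a11 (chr3:50443653-50443660, gene on the minus strand): catgaTGATGcAAattct
Slc7a11 (chr3:50443672-50443679, gene on the minus strand): gtggcTGATGcAAacctg

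The 250 bases upstream of Ddit3, Trib3 and Atf3 are shown whole, since these genes fell together in B16-RI. Capitals mark a match to any of the 4 elements, and only Atf3 has one in this stretch, a CARE on the opposite strand.
Ddit3 (chr10:127290543-127290792, plus strand): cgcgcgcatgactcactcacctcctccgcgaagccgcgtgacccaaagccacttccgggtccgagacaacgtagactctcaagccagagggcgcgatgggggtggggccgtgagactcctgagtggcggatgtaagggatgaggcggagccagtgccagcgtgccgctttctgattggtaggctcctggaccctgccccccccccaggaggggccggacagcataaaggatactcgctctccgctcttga
Trib3 (chr2:152344061-152344310, minus strand): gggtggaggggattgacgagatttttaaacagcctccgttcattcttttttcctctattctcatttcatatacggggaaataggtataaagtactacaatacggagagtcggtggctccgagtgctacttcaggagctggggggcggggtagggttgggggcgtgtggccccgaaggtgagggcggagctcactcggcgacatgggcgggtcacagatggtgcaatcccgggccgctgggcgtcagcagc
Atf3 (chr1:191183334-191183583, minus strand): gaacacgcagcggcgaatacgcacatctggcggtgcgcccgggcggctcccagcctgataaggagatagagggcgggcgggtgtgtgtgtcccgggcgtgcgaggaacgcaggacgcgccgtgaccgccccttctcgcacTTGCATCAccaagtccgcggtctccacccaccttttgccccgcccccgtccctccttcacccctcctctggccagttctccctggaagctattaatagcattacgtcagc

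Genes of the integrated stress response gave the largest differences from B16 among members detected on every array in B16-RI and B16-RII. In B16-RIIL those of Dnajc2 and Dnajc16 were larger. Ddit3, the pro-apoptotic factor CHOP, had a relative signal of 4.34 in B16, 1.24 in B16-RI, 1.86 in B16-RII and 3.16 in B16-RIIL. B16 was the brightest array and B16-RI the dimmest, with B16-RIIL next below B16. Since the RNA came from whole cultures, fewer cells with the message and less message per cell cannot be told apart. Ddit3 fell 3.51-fold in B16-RI and 2.34-fold in B16-RII, and the difference in B16-RIIL was -0.46 log2 units. On B16-RI it had the 21st lowest difference of the 7343 genes detected on every array.

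Trib3, a pseudokinase induced by ATF4 and CHOP that dampens the response, had a relative signal of 3.55 in B16, 0.726 in B16-RI, 2.07 in B16-RII and 2.25 in B16-RIIL. B16-RI stood far below the other arrays. Trib3 fell 4.88-fold in B16-RI, the 7th lowest difference of 7343 genes. The differences of -0.77 log2 units in B16-RII and -0.66 in B16-RIIL were under 2-fold and within the 90% range of paired probes.

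Atf3, a stress-induced repressor of the ATF/CREB family, had a relative signal of 0.856 in B16, 0.257 in B16-RI, 0.291 in B16-RII and 0.393 in B16-RIIL. All passaged lines lay below the parental line. Atf3 fell 3.33-fold in B16-RI, 2.94-fold in B16-RII and 2.18-fold in B16-RIIL, and was the only member detected on every array that fell on each passaged line. Its difference ranked 28th, 26th and 110th from the lowest of the 7343 genes in B16-RI, B16-RII and B16-RIIL, respectively.

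The message of the factor above these genes differed less. Atf4 had a relative signal of 26.9 in B16, 19.2 in B16-RI, 20.0 in B16-RII and 20.6 in B16-RIIL. The passaged lines lay close together below B16, at -0.49, -0.43 and -0.38 log2 units, and none passed 2-fold. The direction of the last pair turned under other scalings, which gave up to 0.15 log2 units in B16-RII and 0.19 in B16-RIIL. Asns, asparagine synthetase and a classic ATF4 target, had a relative signal of 10.7, 8.77, 10.6 and 13.4 in B16, B16-RI, B16-RII and B16-RIIL. It was dimmest in B16-RI and brightest in B16-RIIL, with no difference from B16 past 2-fold, and the direction in B16-RI and B16-RII turned under other scalings.

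Thus 3 of the 5 integrated stress response genes fell in B16-RI, 2 in B16-RII and 1 in B16-RIIL, where 8.58%, 8.25% and 7.47% of all genes tested did, and none rose, where 6.1%, 5.83% and 6.92% of all genes did. The median difference from B16 of the 5 genes was -1.73, -0.78 and -0.46 log2 units in B16-RI, B16-RII and B16-RIIL, while over all genes tested it was 0.02, 0.01 and -0.00294. The same 5 genes were all brighter in B16-RIIL than in B16-RI, by a median of 0.61 log2 units. Over the scalings tried, the difference of Ddit3 in B16-RI lay between -2.07 and -1.81 log2 units, that of Trib3 between -2.30 and -1.89, and that of Atf3 between -1.90 and -1.73. The fall of Ddit3 in B16-RII depended on the scaling, with values between -1.49 and -0.80 log2 units.

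**Figure D1:**
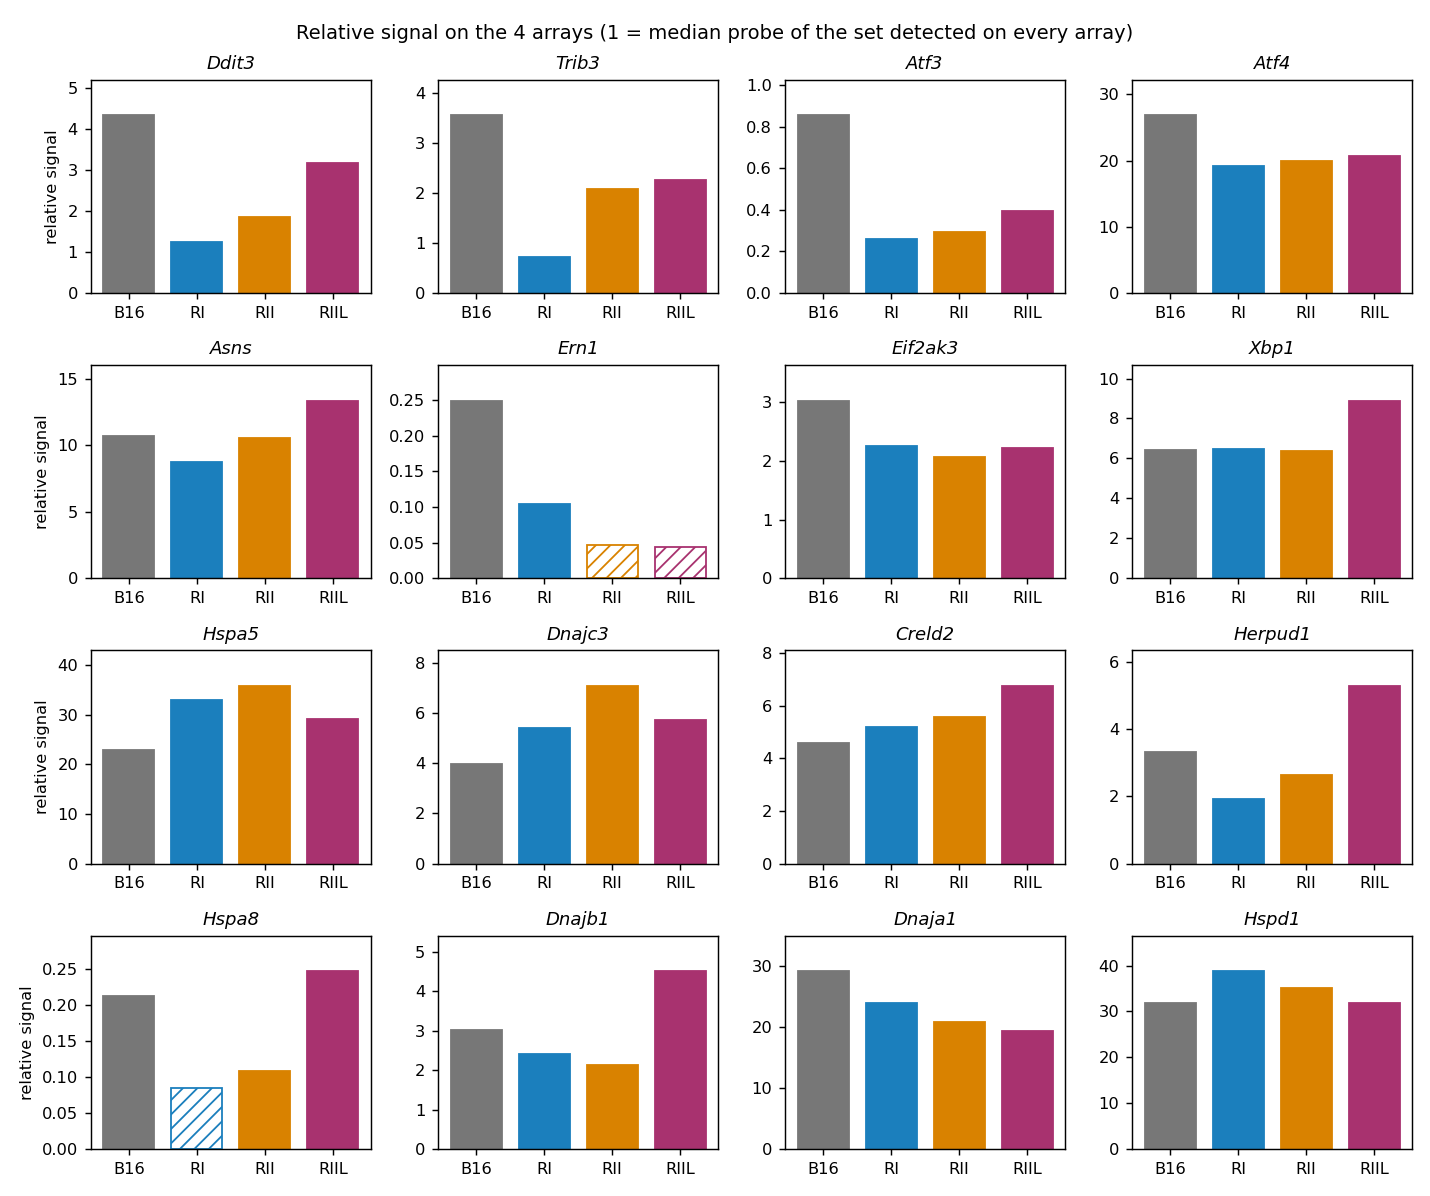
Relative signal (vertical axis, linear, 1 being the median probe of its set detected on every array) of 16 genes on the arrays of B16, B16-RI (RI), B16-RII (RII) and B16-RIIL (RIIL), 1 array per bar with no error bar, hatched where the probe was not detected. Ddit3, Trib3 and Atf3 are highest in B16, whereas Hspa5, Dnajc3 and Creld2 are lowest there.

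The sensors of the ER differed among themselves. Ern1, which encodes the kinase and nuclease IRE1, had a relative signal of 0.249 in B16, 0.105 in B16-RI, 0.0465 in B16-RII and 0.0435 in B16-RIIL. It was detected in B16, with S/N 6.64, and at the very limit in B16-RI, with S/N 3.0, but not on the other arrays. Ern1 fell 2.39-fold in B16-RI, at least 5.37-fold in B16-RII and at least 5.73-fold in B16-RIIL. Its dim signal leaves these sizes uncertain, although the difference stayed past 2-fold in every scaling.

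Eif2ak3, which encodes PERK, had a relative signal of 3.03, 2.26, 2.07 and 2.23 in B16, B16-RI, B16-RII and B16-RIIL. The passaged lines lay together below B16, at -0.42, -0.55 and -0.45 log2 units, and the gene did not pass 2-fold, with values between -0.80 and -0.13 in B16-RII over the scalings. Xbp1, the factor whose message IRE1 splices, had 6.42, 6.47, 6.36 and 8.90 in the same order. Its difference from B16 was 0.01 log2 units in B16-RI, -0.01 in B16-RII and 0.47 in B16-RIIL, none past 2-fold. Other scalings turned the direction in B16-RI and B16-RII, and median scaling took the value in B16-RIIL past 2-fold, to 1.04 log2 units. A probe for the whole message does not separate the spliced form.

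The chaperones and folding enzymes of the ER, which bind and oxidise newly made secretory proteins, differed little. Of 15 listed genes 14 were on the array and 13 were detected on every array, and of the latter all 13 stayed within 2-fold of B16 on each line, as did 92.4% of all genes. This depended on the scaling, since median scaling took Hspa5, Dnajc3 and Sdf2l1 past 2-fold in B16-RII, at 1.22, 1.41 and 1.01 log2 units, and Dnajc3 and Creld2 in B16-RIIL, at 1.10 and 1.13, while another scaling took Dnajc1 to -1.02 in B16-RII. Their median difference was 0.09 log2 units in B16-RI, with 10 of 13 genes brighter than in B16, against 4801 of 9209 of all genes. On B16-RII 11 of 14 genes were brighter, against 4805 of 9407, with a median of 0.24. On B16-RIIL 6 of 13 were, against 4696 of 9453, with a median of -0.00159.

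Hspa5 encodes BiP, the chief Hspa chaperone of the ER. Its relative signal was 23.0 in B16, 32.9 in B16-RI, 35.8 in B16-RII and 29.2 in B16-RIIL. Every passaged line lay above B16, by 1.43-fold, 1.56-fold and 1.27-fold, which is under 2-fold and, in log2 units, within the 90% range of paired probes. The direction was the same in every scaling. In B16-RII the difference also passed 2-fold with the deposited normalized signal, at 1.07 log2 units. The median of all genes stood there at 0.44 log2 units with the deposited signal and 0.42 with median scaling.

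Dnajc3, the P58IPK inhibitor of PERK and co-chaperone of BiP, had a relative signal of 3.97, 5.40, 7.08 and 5.72 in B16, B16-RI, B16-RII and B16-RIIL. It lay above B16 on each line, most in B16-RII at 0.83 log2 units, short of 2-fold with the scaling used here. Creld2, a disulphide isomerase induced by ER stress, had 4.58, 5.20, 5.57 and 6.75, and the calcium-binding chaperone calreticulin, Calr, had 2.96, 3.37, 3.93 and 3.94. Both were lowest in B16. Dnajb11, a further BiP co-chaperone, had 16.8, 19.6, 19.0 and 17.3 and was the fifth ER chaperone above B16 on every passaged line. Over the scalings Hspa5, Dnajc3 and Creld2 stayed above B16 on each line, whereas the direction turned for Dnajb11 on each line and for Calr in B16-RI.

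The opposite order was given by Dnajc1, an ER membrane J-protein at the ribosome. Its relative signal was 8.66 in B16, 6.0 in B16-RI, 4.50 in B16-RII and 6.76 in B16-RIIL. It was the only ER chaperone below B16 on every line, by -0.53, -0.94 and -0.36 log2 units, the last of which turned under other scalings. Dnajb9, the BiP co-chaperone ERdj4 and a target of spliced XBP1, had 1.01, 0.905, 1.15 and 1.58 and was brightest in B16-RIIL, at 0.64 log2 units above B16.

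Of the remaining ER chaperones, all but Hyou1 stayed within 2-fold of B16. Hsp90b1 (GRP94) had a relative signal of 12.0, 13.5, 12.0 and 12.0 in B16, B16-RI, B16-RII and B16-RIIL, with a direction that turned under other scalings on each line, and the lectin chaperone calnexin, Canx, had 22.0, 22.2, 21.2 and 20.5, with the same limit. The isomerases and their partners Pdia3, Pdia4, Sdf2l1 and Dnajc10 differed from B16 by -0.16 to 0.44 log2 units. Hyou1 (GRP170), the exchange factor of BiP, was detected on the B16-RII array only, with a relative signal of 0.108 and S/N 5.11, and was at least 2.63-fold above B16 there.

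Of the genes of ER-associated degradation, which returns misfolded proteins to the cytosol, Herpud1, Syvn1 and Sel1l were brightest in B16-RIIL and Edem1 was dimmest there. Herpud1, a membrane scaffold of the degradation complex, had a relative signal of 3.32 in B16, 1.93 in B16-RI, 2.63 in B16-RII and 5.29 in B16-RIIL. B16-RI was the lowest and B16-RIIL the highest array. None of its differences from B16, at -0.79, -0.34 and 0.67 log2 units, passed 2-fold, although other scalings turned the direction in B16-RII and gave up to 1.24 log2 units in B16-RIIL. Herpud1 was 2.75-fold higher in B16-RIIL than in B16-RI and 2.01-fold higher than in B16-RII.

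Syvn1, the ubiquitin ligase HRD1, was detected on the arrays of the second round only. Its relative signal was 0.142 in B16 and 0.109 in B16-RI, both not detected, 0.198 in B16-RII and 0.371 in B16-RIIL, so that it rose at least 2.62-fold in B16-RIIL. Sel1l, the partner of HRD1, was near the detection limit throughout, with 0.111, 0.113, 0.0604 and 0.124. Edem1, a lectin that marks misfolded glycoproteins, had 4.85, 4.45, 4.69 and 3.89, none past 2-fold and each with a direction that turned under other scalings.

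**Figure D2:**
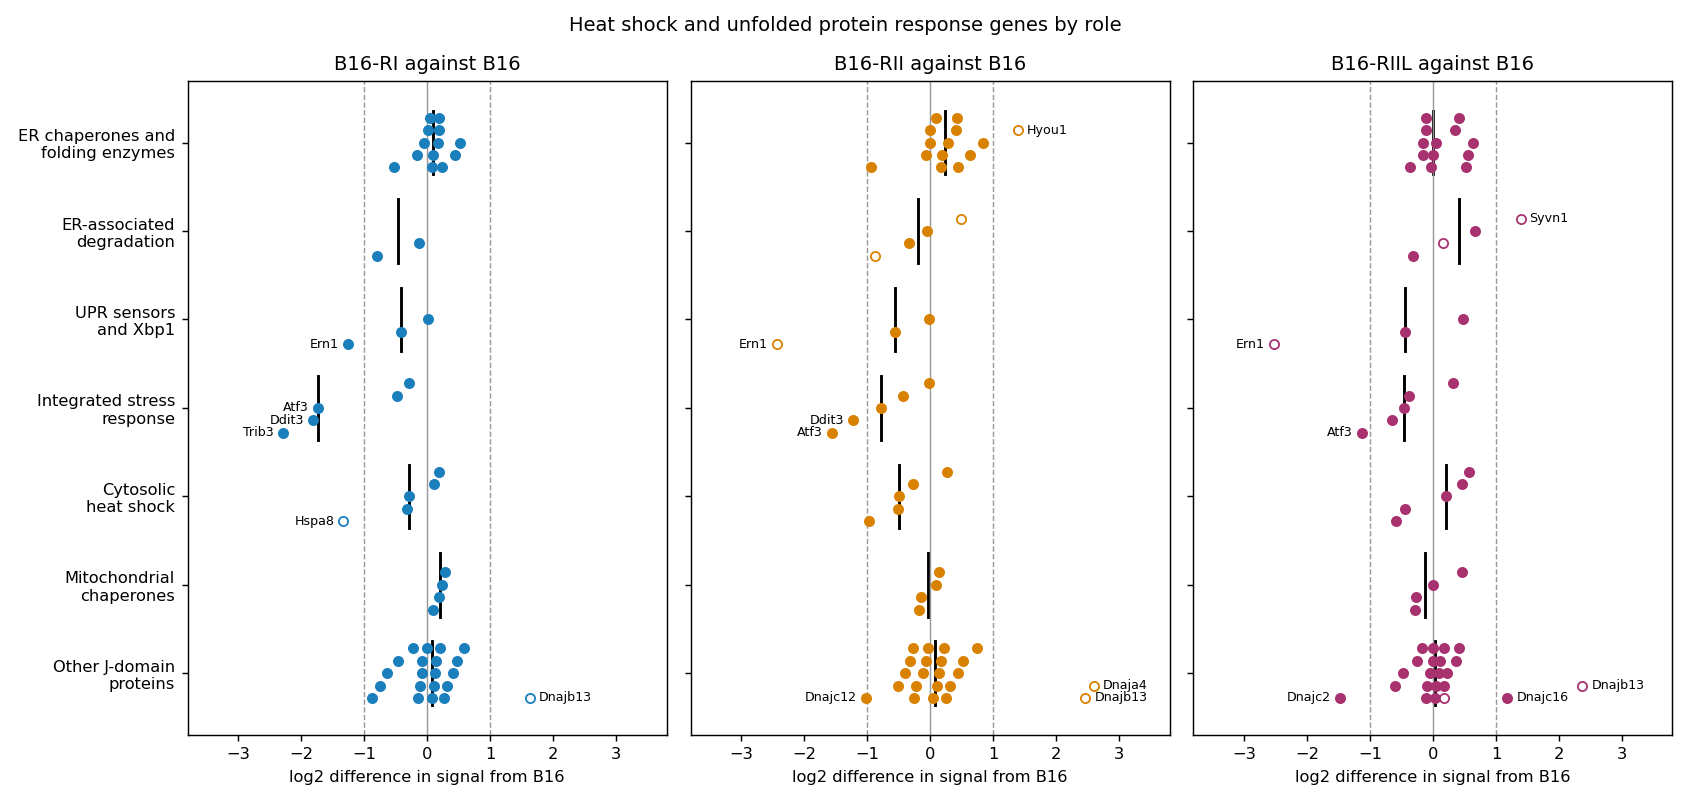
Log2 difference in signal from B16 (horizontal axis) of the members in B16-RI, B16-RII and B16-RIIL, grouped by role, for genes detected on at least 1 of the 2 arrays compared. Filled points were detected on both arrays and open points on 1, so open points are uncertain in size; black bars are group medians, dashed lines mark 2-fold, and genes past them are named. The integrated stress response lies left of 0 in B16-RI and B16-RII, with medians of -1.73 and -0.78, while the other groups centre nearer to 0.

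In the cytosol no heat shock gene detected on every array differed from B16 by 2-fold. Hsf1, the factor of the response, was not detected on any array. The relative signal of Dnaja1, a J-protein partner of the constitutive chaperone, was 29.1 in B16, 23.9 in B16-RI, 20.8 in B16-RII and 19.3 in B16-RIIL. It was lower on every passaged line, by -0.29, -0.49 and -0.59 log2 units, although other scalings turned the direction in B16-RI and B16-RII. Dnajb1, an HSF1 target, had 3.02, 2.42, 2.13 and 4.51 and was brightest in B16-RIIL, where it was 2.12-fold above B16-RII, a call that other scalings ended.

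Hspa8, the constitutive cytosolic chaperone HSC70, was read by 1 dim probe. Its relative signal was 0.213 in B16, 0.0846 in B16-RI, 0.109 in B16-RII and 0.247 in B16-RIIL, with S/N of 6.78, 2.65, 4.37 and 13.3. It was not detected in B16-RI, where it fell at least 2.52-fold. The 1.96-fold lower signal in B16-RII and the 1.16-fold higher one in B16-RIIL were under 2-fold. Over the scalings the difference lay between -1.07 and -0.55 log2 units in B16-RII, which includes 2-fold, and between -0.012 and 0.26 in B16-RIIL, so its direction there was not settled. Hspa4 had 2.76, 2.97, 2.29 and 2.03 and the small heat shock protein Hspb1 had 0.342, 0.390, 0.414 and 0.472, each within 2-fold.

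The mitochondrial chaperones stayed within 2-fold on every line. Hspd1 (HSP60), the chaperonin of the matrix, had a relative signal of 31.8 in B16, 38.8 in B16-RI, 35.0 in B16-RII and 31.9 in B16-RIIL. Its partner Hspe1 (HSP10) had 2.00, 2.35, 1.82 and 1.65, and Hspa9 (mortalin) had 9.31, 9.98, 8.27 and 7.75. These genes were brightest in B16-RI and, with Dnaja3, all 4 of the group lay above B16 there, by a median of 0.21 log2 units. Hspd1 had 3 probes, and the other probes gave -0.25 and -0.63 log2 units in B16-RIIL where the brightest gave 0.000375, so its direction there was not settled. In B16-RII 1 of these probes gave -0.26 where the others gave 0.14 and 0.24. The direction turned under another scaling for Hspd1 on every line and for Hspe1 and Hspa9 in B16-RI and B16-RII, so that only Dnaja3 stayed above B16 in B16-RI throughout. Hspd1 and Hspe1 share a head-to-head promoter, whose HSE was matched in both windows.

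Of the 31 other J-domain genes, 23 were detected on at least 1 array and 20 on every array, with medians of 0.08, 0.08 and 0.04 log2 units in B16-RI, B16-RII and B16-RIIL. The 3 that rose had dim probes. Dnajb13, a J-protein of cilia and flagella, had a relative signal of 0.0282 in B16, where it was not detected, 0.0871 in B16-RI, 0.156 in B16-RII and 0.146 in B16-RIIL. It rose at least 3.09-fold, 5.52-fold and 5.18-fold and was the only member to rise on each passaged line. Dnaja4 was detected on the B16-RII array only, at 0.122, at least 5.81-fold above B16.

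Among J-domain genes detected on every array, Dnajc2, a ribosome-bound J-protein, had a relative signal of 0.363 in B16, 0.391 in B16-RI, 0.302 in B16-RII and 0.131 in B16-RIIL. It fell 2.77-fold in B16-RIIL, the 40th lowest difference of 7343 genes. Dnajc16 had 0.103, 0.113, 0.129 and 0.233 and rose 2.26-fold in B16-RIIL. Dnajc12 had 0.542, 0.322, 0.267 and 0.524 and fell 2.03-fold in B16-RII. Each of these stood apart on 1 or 2 arrays, at low signals with S/N from 3.33 to 22.5. The call of Dnajc12 depended on the scaling, with a smallest difference of -0.59 log2 units, and so did those of Dnajc2, with -0.90, and Dnajc16, with 0.96.

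Probes of a gene disagreed in this call for Dnajc5, the cysteine string protein of secretory vesicles. Its brightest probe had a relative signal of 1.77, 2.48, 2.01 and 1.78 in B16, B16-RI, B16-RII and B16-RIIL. The other probe was detected on the B16 array only, at 0.103, and gave signals at least 2.75-fold, 3.78-fold and 4.86-fold lower on the passaged lines. The brighter probe was used, so Dnajc5 is not counted as falling.

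Counted over all members, 5 of 53 genes fell in B16-RI (Atf3, Ddit3, Ern1, Hspa8 and Trib3) where 8.58% of all genes tested did, and 1 rose (Dnajb13) where 6.1% did. On B16-RII 4 of 57 fell (Atf3, Ddit3, Dnajc12 and Ern1), against 8.25% of all genes, and 3 rose (Dnaja4, Dnajb13 and Hyou1), against 5.83%. On B16-RIIL 3 of 56 fell (Atf3, Dnajc2 and Ern1), against 7.47%, and 3 rose (Dnajb13, Dnajc16 and Syvn1), against 6.92%. As shares of the members these counts were 9.43%, 7.02% and 5.36% for genes that fell and 1.89%, 5.26% and 5.36% for genes that rose. With the deposited normalized signal 6 members rose (10.5%, against 12.2% of all genes) and 2 fell (3.51%, against 5.45%) in B16-RII, and 6 rose (10.7%, against 11.7%) and 2 fell (3.57%, against 5.97%) in B16-RIIL. At 1.5-fold, 9 fell and 2 rose in B16-RI (14.8% and 10.8% of all genes), 7 fell and 6 rose in B16-RII (14.4% and 11.9%), and 6 fell and 5 rose in B16-RIIL (14% and 13.5%). The median difference of the members was 0.01, -0.01 and 0.00585 log2 units in B16-RI, B16-RII and B16-RIIL.

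Some of these calls involve a probe that was not detected on the dimmer array. Of the 50 members detected on every array, 3 fell in B16-RI (6%, against 2.3% of all such genes), 3 in B16-RII (6%, against 2.02%) and 2 in B16-RIIL (4%, against 2.1%). None rose in B16-RI (1.51% of all such genes) or B16-RII (1.65%), and 1 rose in B16-RIIL (2%, against 2.06%). The shares that fell were above those of all genes, but each rests on 2 or 3 members. In B16-RI and B16-RII most of them were of the integrated stress response, while in B16-RIIL they were Atf3 and Dnajc2. On all 3 passaged lines 44 of 50 members (88%) stayed within 2-fold of B16, as did 92.4% of all genes, and 15 members (30%) were brighter than B16 on every line where 29.7% of all genes were.

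The passaged lines were also compared with each other. On B16-RII against B16-RI, 4 members rose (Trib3, Dnajc22, Dnaja4 and Hyou1; 5.31% of all genes) and Ern1 fell (5.56%). Trib3 was 2.86-fold higher in B16-RII than in B16-RI, the 7th highest difference of 7343 genes. Dnajc22 reached 2.00-fold because it was low in B16-RI, with a relative signal of 1.13, 0.612, 1.22 and 1.13 over the arrays. Over the scalings the calls of Dnajc22 and Ern1 in this pair were lost, with smallest differences of 0.95 and -0.74 log2 units.

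On B16-RIIL against B16-RI, 7 of 56 members rose (Ddit3, Trib3, Herpud1, Syvn1, Hspa8, Dnajb2 and Dnajc16; 7.96% of all genes) and 2 fell (Dnajc2 and Ern1; 6.05%). Ddit3 was 2.56-fold and Trib3 3.10-fold higher in B16-RIIL than in B16-RI. Against B16-RII, B16-RIIL had 4 higher members (Herpud1, Sel1l, Hspa8 and Dnajb1; 6.53%) and 2 lower ones (Dnaja4 and Dnajc2; 4.92%). Other scalings ended the calls of Dnajb2 and Dnajc16 against B16-RI and of Sel1l, Hspa8 and Dnajb1 against B16-RII, with smallest differences between 0.62 and 0.95 log2 units.

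On B16-RIIL position in the genome went with part of these values. The 403 genes of chromosome 8 detected on every array had a median difference from B16 of 0.36 log2 units in B16-RIIL, whereas the other 6940 genes had -0.02. Herpud1, Dnajb1, Calr and Dnaja2 lie on chromosome 8, and their differences in B16-RIIL were between 0.10 and 0.67 log2 units with a median of 0.50. The 46 members elsewhere had a median of -0.04. The part of the chromosome in the level of these 4 genes was not tested.

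Genes that share the pathways but were not members were taken from lists. Of 24 ATF4 targets 23 were on the array and 21 were detected on at least 1 array. In both B16-RI and B16-RII 5 of them fell (Chac1, Ddit4, Nupr1, Gpt2 and Atf5), 23.8% and 25% of those tested. In B16-RIIL Nupr1 fell, 4.76% of those tested. Of all genes 8.58%, 8.25% and 7.47% fell in the 3 lines. Slc7a11, a cystine transporter subunit, was not detected in B16 and rose at least 2.75-fold in B16-RI and at least 6.56-fold in B16-RIIL. Its detection in B16-RI was at the limit, with S/N 3.05, and B16-RII stood just under it, with S/N 2.96. Nupr1, a stress-induced chromatin protein, was detected on the B16 array only, at a relative signal of 0.0696, and fell at least 2.49-fold, 3.92-fold and 3.47-fold in B16-RI, B16-RII and B16-RIIL.

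Chac1, which degrades glutathione and is induced by ATF4 and CHOP, had a relative signal of 5.37 in B16, 0.887 in B16-RI, 2.27 in B16-RII and 3.23 in B16-RIIL. Like Ddit3 and Trib3 it was lowest in B16-RI and nearest to B16 in B16-RIIL. Chac1 fell 6.05-fold in B16-RI, the 4th lowest difference of 7343 genes, and 2.36-fold in B16-RII. Ddit4 (REDD1), an inhibitor of mTORC1, had 0.998, 0.157, 0.146 and 0.772. It was not detected in B16-RI and B16-RII, where it fell at least 6.38-fold and 6.82-fold.

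Gpt2 and Atf5 are named after their values were seen, as the others of the 5 that fell. Gpt2, an alanine transaminase of mitochondria, had a relative signal of 1.88, 0.592, 0.935 and 1.92 over B16, B16-RI, B16-RII and B16-RIIL, and the factor Atf5 had 2.05, 0.952, 0.987 and 1.43. In B16-RII the falls of Chac1, Gpt2 and Atf5 were lost under some scalings, with smallest differences of -0.66, -0.58 and -0.63 log2 units, and so was that of Nupr1 in B16-RI, with -0.91. The ATF4 targets did not move as 1 group. The tRNA synthetases Aars, Gars, Nars, Wars, Cars and Sars stayed within 2-fold on every line, and the median over the list was -0.19, -0.13 and 0.02 log2 units in B16-RI, B16-RII and B16-RIIL. On B16-RIIL against B16-RI 5 of 20 ATF4 targets rose (Chac1, Ddit4, Gpt2, Slc7a11 and Slc7a5), which is 25%, against 7.96% of all genes. Gpt2 and Slc7a5 lie on chromosome 8, and the part of the chromosome in their level was not tested.

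**Figure D3:**
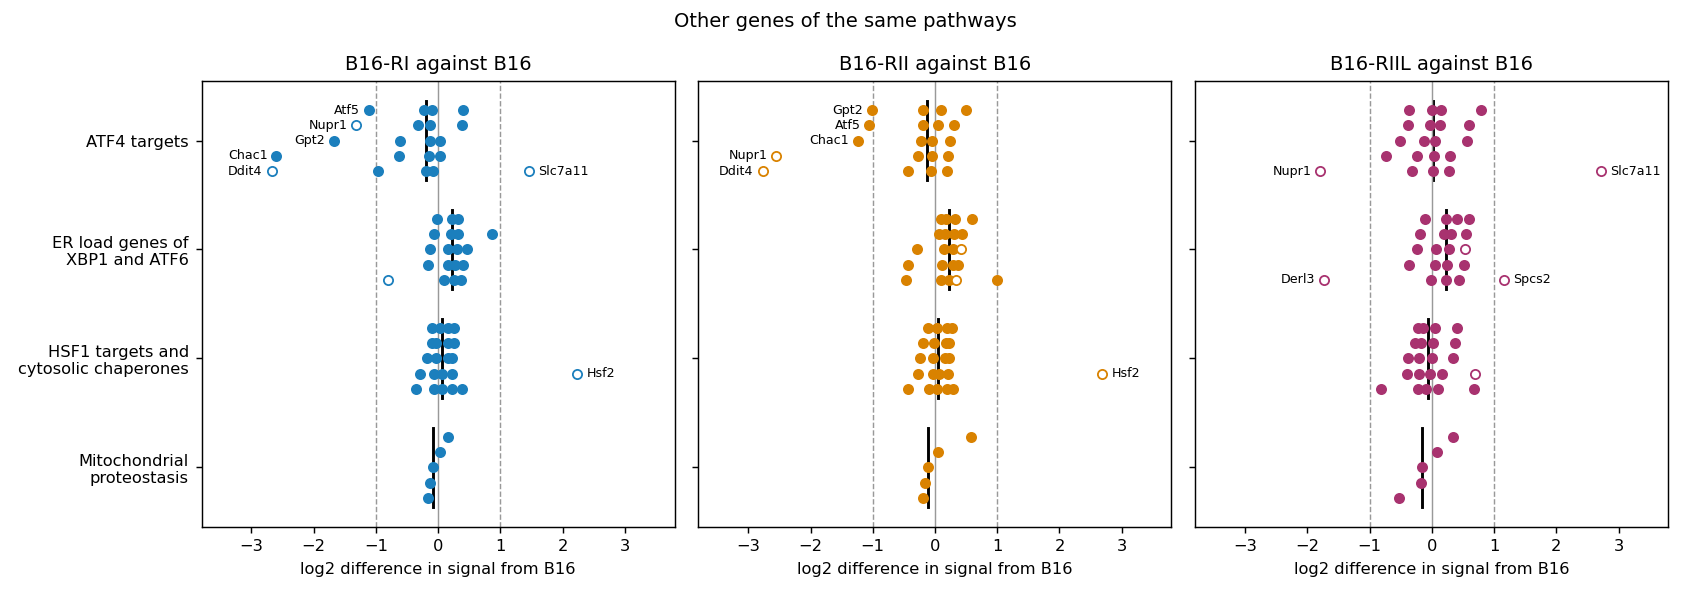
Log2 difference in signal from B16 (horizontal axis) of pathway genes that were not members, in 4 lists, with points, bars and lines as in the plot of members by role. On B16-RI and B16-RII 5 ATF4 targets lie past -1, and the ER load genes have medians of 0.23 on each line with the scaling used here.

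The ER load genes translocate, trim and export secretory proteins and answer to XBP1 and ATF6. Of 25 listed 22 were on the array, and their median difference was 0.23 log2 units on each passaged line with the scaling used here. That is about the size of the median gap between paired probes, 0.22 to 0.31 log2 units. In B16-RI 5 of 19 genes lay below B16, in B16-RII 3 of 21 and in B16-RIIL 6 of 21. Of the 18 detected on every array, 10 were brighter than B16 on all 3 lines with that scaling (55.6%, against 29.7% of all genes). Directions of differences this small can turn with the scaling, as they did for the members Dnajb11 and Hspd1. None passed 2-fold in B16-RI or B16-RII with the scaling used here. Selenos, a selenoprotein of ER degradation named after its values were seen, came closest, with a relative signal of 3.37, 6.11, 6.70 and 4.82, and the deposited normalized signal took it to 1.42 log2 units in B16-RII and Txndc5 to 1.03. On B16-RIIL the dim probes of Spcs2 and Derl3 passed 2-fold, the former at least 2.23-fold above and the latter at least 3.33-fold below B16, each 1 of 21 genes (4.76%), and the call of Spcs2 was lost under another scaling. Of all genes 6.92% rose there and 7.47% fell.

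Of 23 HSF1 targets and cytosolic chaperones, including the CCT chaperonin and Hsp90 genes, only Hsf2 passed 2-fold against B16, 1 of 22 genes tested (4.55%) in B16-RI and in B16-RII, where 6.1% and 5.83% of all genes rose. Hsf2 had a relative signal of 0.0275 in B16, where it was not detected, 0.130 in B16-RI, 0.178 in B16-RII and 0.0443 in B16-RIIL, so that it was at least 4.71-fold and 6.45-fold above B16 in B16-RI and B16-RII. The median of the list was 0.06, 0.05 and -0.06 log2 units. Of 8 mitochondrial proteostasis genes 6 were on the array, and none passed 2-fold with the scaling used here.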

How the data were processed

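RNA of the 4 lines was hybridized to version 2.0 of the Applied Biosystems mouse genome array and read by chemiluminescence on a 1700 analyzer. For 33012 probes the authors deposited a raw intensity and a normalized intensity, and a signal-to-noise score and a flag score from the analyzer. The methods name quantile normalization, but each deposited normalized intensity was found to equal the raw one over a constant, with 2 constants per array that serve 2 sets of probes. In these values the median difference from B16 of the probes detected on every array was unlike between the sets in B16-RI and B16-RIIL. It was 0.39 and 0.07 log2 units for B16-RI and 0.46 and -0.01 for B16-RIIL. For B16-RII the sets were alike, at 0.41 and 0.42. The log2 of the deposited raw intensity was therefore centred, per array and set, at the median of the set's probes detected on all 4 arrays. The deposited normalized intensity and 4 other scalings were alternatives.

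The 16 columns of the arrays that match a label were used. Duplicates are described, but the 30 columns of second arrays (20 with values per sample, 10 with ratios) match no label and were left out, as were 14 derived columns of log2 values and ratios. With 1 array per line used no test was run, and the small number of arrays limits precision. For a probe not detected on the dimmer array, the greater of its signal and the lowest signal detected in its set there was taken. The fold so obtained is written as "at least", but it is not a strict bound. The signal of an undetected probe is uncertain, and the value holds for the scaling used here. Over the scalings Ern1 in B16-RII lay between -2.52 and -2.0 log2 units.

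Of 17302 probes with a symbol, 16303 were matched to the RefSeq gene table of GRCm38.p6, and 275 probes with several genes were left unnamed. The members, lists and naming rule were chosen with earlier results of these data known. The rule asked for values on every array of the sensors, factors and leading chaperones, of members past 1 log2 unit and of members whose probes disagree, and for at most 4 other genes per list past that size. The calling rule was tested on simulated data. Calculations used Python 3.11.15, numpy 2.4.6, pandas 2.3.3 and matplotlib 3.10.9.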

Additional observations from a re-analysis of the deposited data

How the results depend on the processing

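The alternatives were all planned. The deposited signal and median scaling moved the median of all genes off 0, and the members moved with it, while the quantile normalizations left all genes near 0. On B16-RI, B16-RII and B16-RIIL all genes had a median of 0.20, 0.44 and 0.26 log2 units with the deposited signal and 0.15, 0.42 and 0.29 with median scaling. The median of the members on B16-RII turned from -0.01 to 0.41 with the deposited signal and 0.38 with median scaling, and on B16-RIIL it was 0.35 with median scaling. With the deposited signal 6 members rose and 2 fell on B16-RII and 6 rose on B16-RIIL, where 12.2%, 5.45% and 11.7% of all genes did. With median scaling 7 rose and 2 fell on B16-RII and 7 rose on B16-RIIL, where 12.9%, 5.75% and 12.5% of all genes did. With an S/N of at least 5, 0 members rose on B16-RI (3.72% of all genes). With detection required on all 4 arrays, 0 rose and 3 fell on B16-RI, 0 rose on B16-RII and 1 rose on B16-RIIL. Without a detection filter 5 fell on B16-RIIL (12.9% of all genes). At 1.5-fold, 2 rose and 9 fell on B16-RI, 6 rose and 7 fell on B16-RII, and 5 rose and 6 fell on B16-RIIL. Of 87 counts and medians over the members, 66 moved by less than the limits set for them. Of 330 differences of single genes, 240 moved by less than 0.31 log2 units, the median gap between paired probes, and 90 by more. No replicate was left out, and no paired analysis was possible because only the columns of 1 array per line match a label and the second arrays were not used. Dim probes limit the sizes given for Ern1, Hspa8, Hyou1, Syvn1, Dnaja4 and Dnajb13, and outside the members for Slc7a11, Nupr1 and Hsf2.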
